A study of Mus musculus with 10 samples.

Results

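Serum amyloid A genes and Lrg1 were followed in mouse livers labelled as Etnppl knockout or wild type. The rows of the deposited table whose gene symbol was Saa1, Saa2, Saa3, Saa4 or Lrg1 were taken, which gave 5 genes of the 47702 listed. All 5 had a mean of at least 0.5 FPKM (fragments scaled to transcript length and library total) and were among the 12247 genes tested. The genes were chosen by symbol with earlier FPKM results of these libraries known, the difference between genotypes included. Their levels and differences are therefore given as a description, and the p-values of the fit say only where each gene stands in the table.

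The samples were livers of female mice with a whole-body knockout of Etnppl (KO) and of wild-type females (WT), all kept on a chow diet for 20 weeks, with 5 poly-A RNA libraries per genotype. Etnppl encodes ethanolamine-phosphate phospho-lyase, and the study asked how its loss altered hepatic gene expression. The labels give no strain, age or targeted exon, and they do not tie each library to its own animal, so the spread behind a p-value may be partly technical. Etnppl itself was at 65.8 ± 26 FPKM (SD, n = 5) in WT and 22.1 ± 3.92 FPKM (SD, n = 5) in KO, with no overlap between the genotypes. Transcript was left in every KO library, at 17.7 FPKM or more, so KO and WT name the libraries as labelled. Relative sequencing depth, taken from the fragment-sized steps of low values, ran from 0.886 to 1.12 of the average library. Hepatocyte markers dominated every library, where Alb averaged 41140 FPKM (WT) or 43770 FPKM (KO livers). In whole tissue, fewer cells of a type and less RNA per cell cannot be told apart.

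Serum amyloid A proteins are small apolipoproteins that hepatocytes secrete and that travel on high-density lipoprotein. In the acute-phase response, interleukin-6 acting through STAT3 and interleukin-1 or tumour necrosis factor acting through NF-kB and C/EBP factors raise the transcription of Saa1 and Saa2 many-fold in liver. Saa3 responds to the same signals and is also made outside hepatocytes, in macrophages and adipocytes. Saa4 encodes the constitutive form, which circulates on lipoproteins without inflammation. Lrg1 encodes leucine-rich alpha-2-glycoprotein, a secreted plasma protein made by hepatocytes and stored in neutrophil granules, which rises with interleukin-6 and modulates TGF-beta signalling through endoglin in endothelium.

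The Saa genes lie within 42.3 kb of chromosome 7 in mm10, in the order Saa3, Saa4, Saa1, Saa2. Saa3 spans 46711998 to 46715700, Saa4 spans 46727998 to 46732603 and Saa1 spans 46740497 to 46742980, all on the minus strand. Saa2 lies on the plus strand from 46751790 to 46754313, so that Saa1 and Saa2 point away from each other with 8.81 kb between their starts. Lrg1 lies on the minus strand of chromosome 17 from 56119678 to 56122001. The Saa1 and Saa2 reference transcripts were 94.4% identical over 606 aligned bases, against 81.7% for Saa1 and Saa3 and 74.1% for Saa1 and Saa4. How the counting split reads between Saa1 and Saa2 is therefore uncertain, and their summed level is given beside each.

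The 250 bases before the RefSeq start of each gene (GRCm38.p6) are shown because the members differ there in their matches to the patterns searched for acute-phase factors. Capitals mark matches on either strand to TTGCNNAA (a C/EBP type motif, N being any base) or to GGG and TTCC with 3 bases between them (an NF-kB type motif).
Saa1, chr7:46742981-46743230, minus strand: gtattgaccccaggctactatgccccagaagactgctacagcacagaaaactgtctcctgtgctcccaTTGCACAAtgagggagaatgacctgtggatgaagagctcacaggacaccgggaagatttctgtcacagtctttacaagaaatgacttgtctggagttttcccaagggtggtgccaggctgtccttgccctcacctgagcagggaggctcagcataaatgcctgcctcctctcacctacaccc
Saa2, chr7:46751583-46751832, plus strand: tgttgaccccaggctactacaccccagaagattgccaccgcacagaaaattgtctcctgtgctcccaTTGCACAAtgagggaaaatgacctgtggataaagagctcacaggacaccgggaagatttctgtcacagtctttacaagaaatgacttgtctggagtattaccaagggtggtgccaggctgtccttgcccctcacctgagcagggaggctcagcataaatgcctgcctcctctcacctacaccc
Saa3, chr7:46715677-46715926, minus strand: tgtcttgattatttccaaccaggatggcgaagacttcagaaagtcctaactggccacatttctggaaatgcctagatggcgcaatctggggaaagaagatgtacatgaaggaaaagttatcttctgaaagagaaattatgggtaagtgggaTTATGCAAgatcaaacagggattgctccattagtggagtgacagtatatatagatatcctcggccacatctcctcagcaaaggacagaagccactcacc
Saa4, chr7:46732604-46732853, minus strand: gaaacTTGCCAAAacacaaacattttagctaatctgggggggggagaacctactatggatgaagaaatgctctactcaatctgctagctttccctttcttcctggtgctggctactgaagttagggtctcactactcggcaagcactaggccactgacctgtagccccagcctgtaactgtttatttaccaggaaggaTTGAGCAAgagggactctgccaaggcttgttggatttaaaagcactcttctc
Lrg1, chr17:56121947-56122196, minus strand: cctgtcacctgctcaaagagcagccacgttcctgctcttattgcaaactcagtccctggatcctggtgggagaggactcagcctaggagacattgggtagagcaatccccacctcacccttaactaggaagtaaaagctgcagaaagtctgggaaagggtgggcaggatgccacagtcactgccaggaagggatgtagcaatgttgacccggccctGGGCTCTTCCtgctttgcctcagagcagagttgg

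The upstream sequences of Saa1 and Saa2 were 95.6% identical over 249 aligned bases. Each carried the same C/EBP type match, 182 bases before the start in Saa1 and 183 in Saa2. Saa3 held a match 99 bases before its start, and Saa4 held a pair of them, 245 and 52 bases before its start. Lrg1 had no C/EBP type match and a single NF-kB type match 34 bases before its start. Over the 32851 RefSeq promoters of the same length, 9.56% held the C/EBP type motif and 4.65% the NF-kB type motif. No member matched TTCNNNGAA (a STAT type motif, present in 7.02% of promoters) or TATAAA (present in 12.4%). These are letter matches and not measured binding sites.

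All 5 genes had lower mean levels in KO, and Saa3, Saa4 and Lrg1 were called lower at a limma adjusted p under 0.05, as were 4.56% of the genes tested. Nothing is read from that count, because the genes were chosen with the contrast known. For the same 3 genes every KO library lay below every WT library, a pattern held by 4.78% of the genes tested. The median log2 difference (KO minus WT, on the log2(FPKM + 0.5) scale) was -0.78 over the 5 genes and -0.02 over all genes tested.

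**Figure D1:**
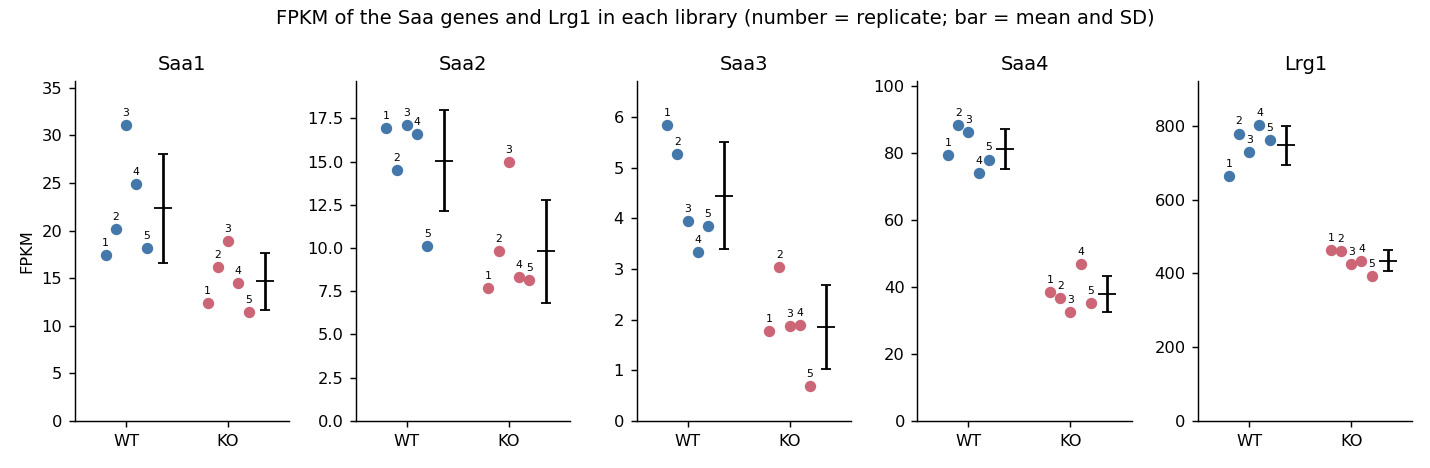
FPKM of each gene (vertical axes, from 0) in the WT and KO libraries, with 1 point per library marked by its replicate number and a black bar for the mean and SD of 5 libraries. Saa3, Saa4 and Lrg1 separate by genotype, while KO 3 reaches into the WT range for Saa1 and Saa2.

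Saa4, the constitutive form, fell with the smallest SE of the Saa genes. Its WT libraries held 79.4, 88.2, 86.1, 74.0 and 78.0 FPKM in replicates 1 to 5, and its KO libraries held 38.6, 36.7, 32.4, 46.8 and 35.2 FPKM. The lowest WT library stood 27.2 FPKM above the highest KO library, KO 4. The mean was 81.2 ± 5.88 FPKM (SD, n = 5) in WT and 38.0 ± 5.44 FPKM (SD, n = 5) in KO, which left KO at 46.8% of WT. On the log2 scale KO minus WT was -1.09 with an SE of 0.09 (limma adjusted p = 0.000189). By p Saa4 ranked 2 among the 12247 genes.

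Lrg1 was the most abundant of the 5, ranking 128 by mean FPKM among the genes tested. Its WT libraries held 663, 779, 728, 801 and 761 FPKM, and its KO libraries held 463, 459.7, 424, 433 and 392 FPKM. The groups lay 200.2 FPKM apart at their closest, between WT 1 and KO 1. The WT mean was 747 ± 53.6 FPKM and the KO mean 434 ± 29.2 FPKM (SD, n = 5 each), so KO stood at 58.2% of WT. The log2 difference was -0.78 with an SE of 0.06 (limma adjusted p = 0.000189), and by p Lrg1 ranked 3. The fold was smaller than that of Saa4. The coefficient of variation was nearly the same as that of Saa4 in WT (7.184% for Lrg1, 7.245% for Saa4). In KO it was smaller (6.71% for Lrg1, 14.3% for Saa4).

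Saa3 was the least abundant member and showed the lowest ratio of KO to WT means. Its WT libraries held 5.84, 5.27, 3.95, 3.33 and 3.85 FPKM, and its KO libraries held 1.77, 3.04, 1.87, 1.90 and 0.69 FPKM. WT 4 and KO 2 were separated by 0.29 FPKM, so the groups nearly met. The means were 4.45 ± 1.06 FPKM in WT and 1.85 ± 0.832 FPKM in KO (SD, n = 5 each), with KO at 41.7% of WT. The log2 difference was -1.13 with an SE of 0.25 (limma adjusted p = 0.0215), which the added 0.5 FPKM understates at this level. Without WT 1 the difference was -1.03 and the adjusted p 0.05, at the threshold.

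Saa1 and Saa2, the acute-phase forms of liver, had means in KO near 65% of those in WT but overlapping libraries. Saa1 was at 17.4, 20.1, 31.0, 24.9 and 18.1 FPKM in WT 1 to 5, and at 12.3, 16.1, 18.9, 14.5 and 11.4 FPKM in KO 1 to 5. KO 3 stood above WT 1 and WT 5, and the other KO libraries stood below every WT library. The mean of Saa1 was 22.3 ± 5.69 FPKM in WT and 14.7 ± 2.99 FPKM in KO (SD, n = 5 each), 65.7% of WT. Its log2 difference of -0.58 (SE 0.17) did not pass the test (limma adjusted p = 0.0616). Among the fits with 1 library left out it passed only without KO 3 (-0.67, adjusted p = 0.044). In the others the adjusted p was as high as 0.131.

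Saa2 was at 16.9, 14.5, 17.1, 16.6 and 10.1 FPKM in the WT libraries, and at 7.71, 9.84, 14.97, 8.33 and 8.14 FPKM in the KO libraries. Again KO 3 lay inside the WT range, above WT 2 and WT 5. The mean was 15.1 ± 2.93 FPKM in WT and 9.80 ± 3.001 FPKM in KO (SD, n = 5 each), 65.1% of WT. The log2 difference of -0.61 (SE 0.19) did not pass the test (limma adjusted p = 0.0686). Among the fits with 1 library left out it passed only without KO 3 (-0.77, adjusted p = 0.0155) or WT 5 (-0.74, adjusted p = 0.0325). In the others the adjusted p was as high as 0.141. Added together as 1 feature, an alternative chosen after seeing the data, Saa1 and Saa2 had 37.4 ± 7.63 FPKM in WT and 24.5 ± 5.84 FPKM in KO (SD, n = 5 each). That sum differed by -0.61 with an SE of 0.17 on the log2 scale (limma adjusted p = 0.0478), although 28.3 FPKM in the lowest WT library lay below 33.8 FPKM in KO 3.

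**Figure D2:**
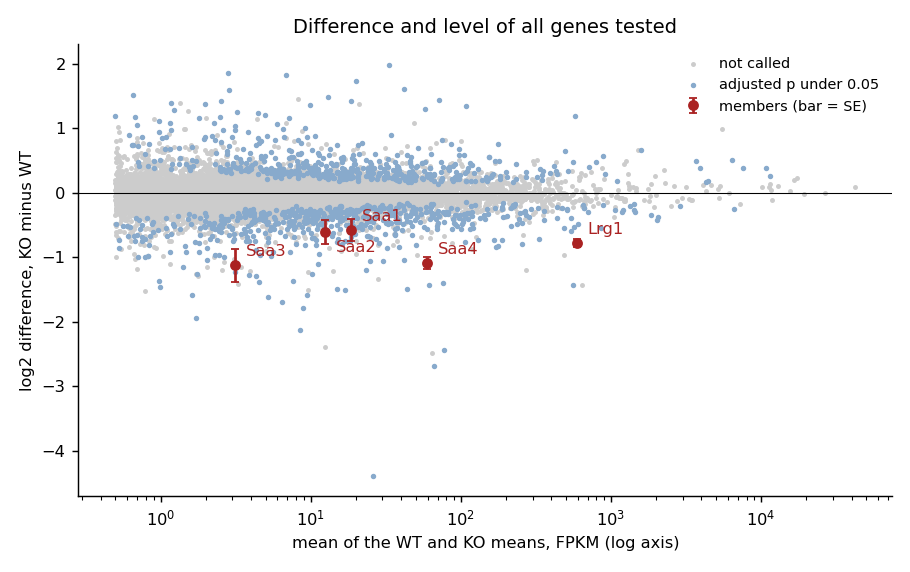
Log2 difference (KO minus WT, vertical axis) against the mean FPKM (log axis) for the 12247 genes tested, with the 5 members in red and bars for their SE. The members lie between -0.58 and -1.13 and span levels from Saa3 to Lrg1.

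In per-length units the order of levels was the same in both genotypes: Lrg1, Saa4, Saa1, Saa2, Saa3. The libraries of neighbouring genes in that order did not overlap in either genotype, except Saa1 and Saa2 in KO, where Saa1 started at 11.4 FPKM and Saa2 reached 14.97 FPKM. In WT the highest Saa2 value, 17.1 FPKM, was just under the lowest Saa1 value, 17.4 FPKM. Saa2 was below Saa1 in each library, at 55.0% to 97.2% of it in WT and 57.4% to 79.3% in KO. Saa4 made up 66.1 ± 3.85% of the summed Saa FPKM in WT and 59.2 ± 7.51% in KO (SD, n = 5 each), with overlapping ranges and the lowest share, 47.6%, in KO 3. Together the 5 genes held 0.122 ± 0.00915% of the library's summed FPKM in WT and 0.0682 ± 0.00346% in KO (SD, n = 5 each), without overlap. Most of this was Lrg1, with means of 747 FPKM in WT and 434 FPKM in KO. The summed Saa genes averaged 123 FPKM in WT and 64.3 FPKM in KO, also without overlap.

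Spread between libraries of 1 genotype differed among the members. The pooled SD within genotype, on the log2(FPKM + 0.5) scale, was 0.31 for Saa1, 0.34 for Saa2 and 0.45 for Saa3. These stood at the 87.4, 90.1 and 95.6 percentiles of the genes tested. Among the 200 genes nearest in level they stood at the 93.5, 95.5 and 93.5 percentiles. Saa4 had an SD of 0.16, at the 49.9 percentile of the genes tested, and Lrg1 an SD of 0.10, at the 21.0 percentile. Among the 200 genes nearest in level, Saa4 stood at the 74.5 percentile and Lrg1 at the 41.0 percentile.

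**Figure D3:**
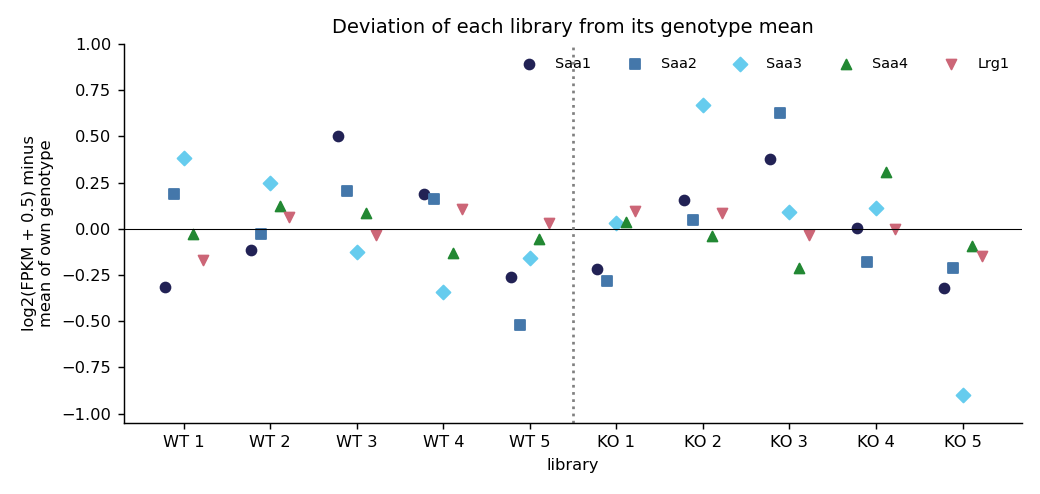
Deviation of each library from the mean of its own genotype (log2 scale, vertical axis) for the 5 members, WT libraries left and KO libraries right of the dotted line. Saa1 and Saa2 are both high in KO 3 and both low in WT 5, KO 1 and KO 5, and Saa3 is lowest in KO 5.

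Because r over all libraries includes the genotype difference, the members were compared through deviations from their genotype means over 10 libraries, for 10 pairs. Saa1 and Saa2 had the highest agreement, with Pearson's r = 0.68 (permutation within genotype, p = 0.041, 0.407 after Benjamini-Hochberg adjustment) and Spearman's rho = 0.66 (permutation p = 0.055, adjusted 0.552). Without WT 3 and KO 3, the libraries farthest from the median of Saa1, r was 0.44. Saa4 and Lrg1 had r = 0.11 (permutation p = 0.764, adjusted 0.822) and rho = -0.03 (permutation p = 0.948, adjusted 0.971), with r = 0.14 without KO 3 and KO 4. No pair passed the adjusted test. In KO 3, Saa1 and Saa2 were 0.38 and 0.63 above the KO mean, while Saa4 was 0.21 below it. In KO 5, which had the lowest Saa3, Saa3 was 0.90 below the KO mean.

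The genes whose levels followed each member most closely over the 10 libraries were ranked by Pearson's r of log2(FPKM + 0.5), which includes the genotype difference. For Saa4 they were Rps6ka1, a ribosomal S6 kinase (r = 0.99), Pipox, the peroxisomal sarcosine and pipecolate oxidase (0.98), and BC089597 (0.97). For Lrg1 they were Ebp, a sterol isomerase of cholesterol synthesis (0.97), Fam210b (0.97) and Dpys, dihydropyrimidinase (0.97). All 6 were called lower in KO by limma, beside 4.56% of all genes tested, with log2 differences from -0.76 for Rps6ka1 to -0.32 for Ebp. For Saa3 they were Laptm5, a lysosomal protein of blood cells (0.97), H2-Ab1, an MHC class II chain (0.95), and Samhd1 (0.94). For Saa2 they were Fcgr3, an Fc receptor of myeloid cells (0.96), Txndc11 (0.95) and Swi5 (0.95), and for Saa1 AA415398 (0.93), Ormdl3 (0.91), a regulator of sphingolipid synthesis, and Arl4a (0.91). Of these 9, limma called 4 lower, Laptm5, H2-Ab1, Fcgr3 and Txndc11. Fcgr3 and Txndc11 passed only without WT 5 or KO 3 among the fits with 1 library left out (adjusted p up to 0.102) and under none of 3 scalings. Laptm5 lost its call without WT 1, WT 2 or KO 1, and H2-Ab1 without WT 1, WT 2, WT 5 or KO 5 (adjusted p up to 0.0553). All 15 genes were picked for their r, which therefore has no test. Since that r includes the genotype difference, the picking favoured genes lower in KO, and nothing is read from the number called.

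Genes around the Saa cluster were not called. Of 5 tested genes that start within 100 kb of the cluster, limma called 0 (0 with an unadjusted p under 0.05), beside 8.54% of all genes tested. At that share 0 calls among 5 genes says little. Their log2 differences ran from -0.20 for Sergef to 0.04 for Hps5. Saal1, which lies next to Saa3, was at 0.874 FPKM in WT and 0.782 FPKM in KO. Ldha, an abundant enzyme of glycolysis, was at 872 ± 128 FPKM in WT and 772 ± 48.2 FPKM in KO (SD, n = 5 each; log2 difference -0.17, limma adjusted p = 0.304). Within 100 kb of Lrg1, 2 of 9 tested genes were called by limma, Ubxn6 (-0.23) and Tnfaip8l1 (-0.43), beside 8.54% of all genes tested. The call of Tnfaip8l1 needed WT 5, KO 2 and KO 5, since leaving out any of them raised its adjusted p to as much as 0.0537. The nearest neighbours of Lrg1, Plin5 (-0.16), a lipid droplet protein, and Sema6b (-0.18), did not pass.

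Other acute-phase genes changed in both directions. Of 25 tested genes whose products rise in the acute phase, 6 fell, 2 rose and 17 did not pass, with a median log2 difference of -0.08, while 8.54% of all genes were called in either direction. Itih4, an inter-alpha-trypsin inhibitor chain, fell from 578 ± 45.1 to 394 ± 30.2 FPKM (SD, n = 5 each; -0.55), Fga, a fibrinogen chain, fell by 0.37 on the log2 scale, and Steap4, a metalloreductase, fell by 0.44. Apcs, serum amyloid P component, rose from 63.4 ± 9.57 to 108 ± 23.9 FPKM (SD, n = 5 each; 0.75). The other called genes, named after their values were seen, were the C-reactive protein gene Crp, which rose by 0.30, and C3 (-0.42), Fgg (-0.30) and Lbp (-0.35), which fell. Leaving out 1 library gave 4 to 6 falls and 1 or 2 rises in this list, except that 9 fell without WT 3. Crp lost its call without any library but WT 4 and KO 4, Fgg without any but WT 2, WT 3 and KO 1, and Lbp without any but WT 3 and KO 1 (adjusted p up to 0.103), and Lbp also lost it under each of 3 scalings and Fgg under quantile normalization. Several classical acute-phase genes were not called. Hp, haptoglobin, was at 0.09 (SE 0.07), Orm1, an orosomucoid, at -0.01 (SE 0.10), Serpina3n at 0.05 (SE 0.12) and Lcn2, lipocalin-2, at 0.16 (SE 0.35). Hamp, hepcidin, which also responds to interleukin-6, was at 3670 ± 1464 FPKM in WT and 7228 ± 2742 FPKM in KO (SD, n = 5 each; limma adjusted p = 0.0867). These 5 were chosen after their values were seen.

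Plasma proteins that decline in the acute phase were also mixed. Of 10 tested, 2 rose, 2 fell and 6 did not pass, with a median of -0.09, while 8.54% of all genes were called in either direction. Rbp4, retinol-binding protein, rose by 0.18 and Ahsg, fetuin-A, by 0.38, whereas Trf, transferrin, fell by 0.25 and Azgp1 by 0.19. Each of the 4 calls was lost in most fits with 1 library left out, and those fits also called fewer genes over the whole table. Rbp4 passed only without WT 2 or WT 3, Ahsg only without WT 4, KO 1 or KO 2, Azgp1 only without WT 1, WT 3 or KO 1, and Trf only without WT 2, WT 3, KO 1 or KO 4, among the fits with 1 library left out (adjusted p up to 0.113 in the others). Under quantile normalization neither Rbp4 nor Ahsg was called, and under median-of-ratios scaling Azgp1 was not.

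**Figure D4:**
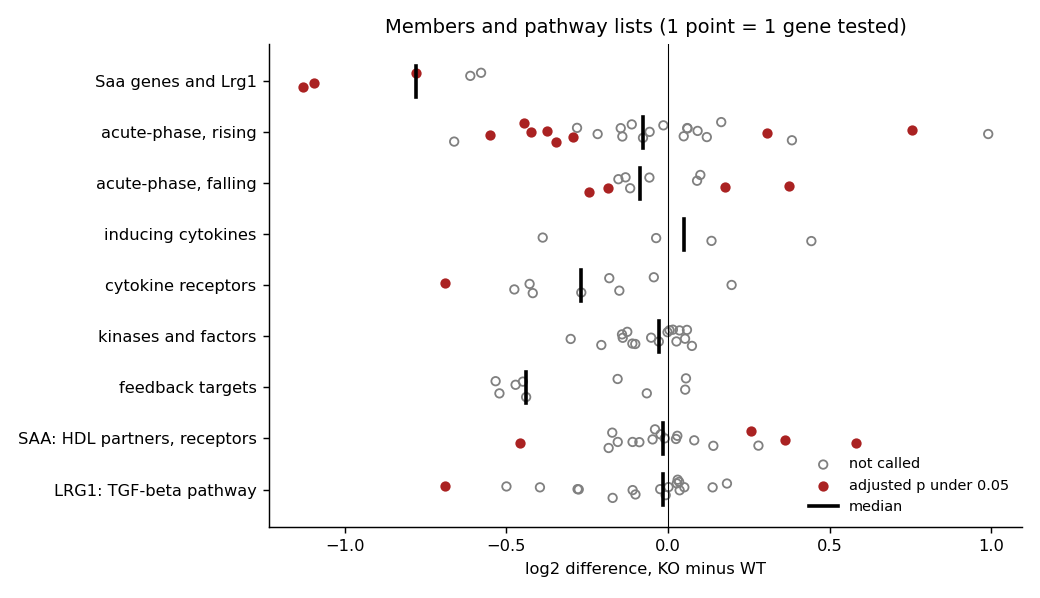
Log2 differences (KO minus WT, horizontal axis) of the members and of the tested genes in 8 pathway lists, with filled points for genes called by limma and black bars for medians. The members sit at or below -0.58, while each list except the kinases and factors, the feedback targets and the cytokines holds at least 1 called gene.

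Cytokines that induce these genes stayed at or below 7.72 FPKM in every library. Of 10 listed, 4 were abundant enough to be tested and limma called 0 of these, with 0 reaching an unadjusted p under 0.05. Over all genes tested 8.54% were called, so 0 calls among 4 genes says little. Il6 was at a mean of 0.074 FPKM in WT and 0.032 FPKM in KO, Tnf at 0.172 and 0.19 FPKM, and Il22 was listed at 0 in every library. Il1a, an interleukin-1 gene, was at 3.68 ± 2.49 FPKM in WT and 4.68 ± 2.09 FPKM in KO (SD, n = 5 each). Il1b, the other interleukin-1 gene, was at 3.97 ± 3.08 FPKM in WT and 2.21 ± 1.09 FPKM in KO (SD, n = 5 each). Ctf1, cardiotrophin-1, had the highest mean level and the smallest p in this list, at 5.98 ± 0.695 and 6.64 ± 1.005 FPKM (SD, n = 5 each; log2 difference 0.13, limma adjusted p = 0.492).

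Among 9 cytokine receptor genes, Lifr fell and 8 did not pass, with a median of -0.27, while without WT 3 there was also 1 called higher. The call of Lifr made up 11.1% of the list, beside 8.54% of all genes tested. Lifr, the leukaemia inhibitory factor receptor, fell from 30.8 ± 6.50 to 18.7 ± 2.33 FPKM (SD, n = 5 each; log2 difference -0.69, limma adjusted p = 0.0135). Il6st, the shared signal chain gp130, was at -0.15, Il1r1 at -0.42 and Il6ra at -0.43, none of them called. Of 17 genes for kinases, adaptors and transcription factors, limma called 0, and 1 had an unadjusted p under 0.05, with a median of -0.03. Stat3 was at 29.4 ± 3.28 FPKM in WT and 28.2 ± 1.95 FPKM in KO, and Cebpd at 14.4 ± 3.68 and 14.8 ± 3.86 FPKM (SD, n = 5 each). Hnf4a, a hepatocyte nuclear receptor, had the smallest p (-0.30, limma adjusted p = 0.116).

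Feedback genes that interleukin-6 and NF-kB signalling switch on had a median of -0.44 over 9 tested, with 7 below 0. Limma called 0 of them, beside 8.54% of all genes tested, and without WT 4 it called 1. An unadjusted p under 0.05 was reached by 5. Over all genes tested an unadjusted limma p of 0.05 went with an adjusted p of 0.20, so such values were not rare outside this list. Whether this list held more of them than other genes was not tested. Nfkbiz, an atypical IkB protein, was at 3.30 ± 0.878 FPKM in WT and 2.10 ± 0.249 FPKM in KO (SD, n = 5 each; -0.52, limma adjusted p = 0.0538). Socs3, the feedback inhibitor of gp130 signalling, was at 2.71 ± 0.559 and 1.86 ± 0.362 FPKM (SD, n = 5 each; -0.44, limma adjusted p = 0.078). Nfkbia, the classical IkB, was at -0.07.

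Partners and receptors of the encoded proteins were then examined. Of 18 tested genes for high-density lipoprotein partners, serum amyloid A receptors and degrading proteases, 3 rose, 1 fell and 14 did not pass, with a median of -0.02. Limma called 22.2% of this list, beside 8.54% of all genes tested. Pltp, phospholipid transfer protein, fell from 30.1 ± 2.11 to 21.7 ± 1.76 FPKM, and Cd36, a scavenger receptor, rose from 84.1 ± 11.6 to 125 ± 12.2 FPKM (SD, n = 5 each). Ctsl, a lysosomal protease, rose by 0.36 and Apoa2, an apolipoprotein of high-density lipoprotein, by 0.26, a call lost without KO 4 (adjusted p = 0.0505) and under quantile normalization. Apoa1 was at 0.14 and Scarb1, the high-density lipoprotein receptor, at -0.17, neither called. Of 18 tested genes of TGF-beta and BMP signalling, on which the LRG1 protein acts, 17 did not pass. Id3 fell from 23.3 ± 5.73 to 14.0 ± 1.68 FPKM (SD, n = 5 each, log2 difference -0.69). That call made up 5.56% of the list, below the 8.54% of all genes tested. Without WT 1 there were 2 called lower. Eng, the endoglin gene, was at -0.02 (SE 0.07) and Id1 at -0.50 (limma adjusted p = 0.0587).

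Markers of other cells that make these transcripts were summed per library. Kupffer cell markers, 8 of 8 detected, summed to 179.9 to 211 FPKM in WT and 124 to 175 FPKM in KO, without overlap. Of single genes tested, 4.78% had every KO library below every WT library. Limma called 4 of the 8 lower (Clec4f, Vsig4, Csf1r and C1qa), beside 4.56% of all genes tested. Marco, a scavenger receptor in the same list, was higher in mean in KO, at 6.71 ± 2.39 FPKM in WT and 12.4 ± 7.71 FPKM in KO (SD, n = 5 each; log2 difference 0.75, limma adjusted p = 0.191). Cd5l, Timd4 and Adgre1 were at -0.22, -0.12 and -0.30, none of them called. Csf1r was not called once WT 1, WT 2, WT 3, KO 1, KO 2 or KO 5 was left out (adjusted p up to 0.0688). Saa3, which macrophages can make, was lower in the same libraries, and the part of these cells in the result was not tested. Neutrophil markers summed to 5.63 to 12.2 FPKM in WT and 4.89 to 9.73 FPKM in KO, and of 4 tested limma called 0, with 0 reaching an unadjusted p under 0.05. Within this list, the granule genes Mpo, Elane, Camp, Ngp and Ltf had a highest value of 0.37 FPKM in any library. S100a8 reached 3.72 FPKM, S100a9 4.96 FPKM and Retnlg 1.58 FPKM. Lrg1 was at 392 FPKM or more, and the part of neutrophils in its level was not tested. Monocyte markers summed to 46.8 to 74.3 FPKM in WT and 42.0 to 68.9 FPKM in KO, and of 4 tested limma called 0, with 0 reaching an unadjusted p under 0.05. With 8.54% of all genes tested called, 0 calls among 4 neutrophil or 4 monocyte genes says little. Adipocyte markers summed to at most 3.08 FPKM, with Lep at 0 in every library.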

How the data were processed

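Poly-A RNA of 5 KO and 5 WT livers was measured. The deposited values were the authors' FPKM for each gene in each library. The submitters' processing notes name mm10, RSEM, STAR, DESeq2, DESeq and R 4.0.2 without assigning steps to them. The sources used here do not give the annotation, the strand setting or the reads per library.

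No rescaling was applied, and values were taken as log2(FPKM + 0.5). Genes averaging 0.5 FPKM or more were fitted with limma 3.58.1 (R 4.3.3) on genotype alone, with robust, trended eBayes and two-sided tests. A call needed a Benjamini-Hochberg adjusted p under 0.05 over all genes tested. The fit was tested on simulated data. Members and lists were chosen with earlier results of these data known. All 174 list entries matched a row. Named genes were the members, the 3 genes most like each by r, and in each list up to 4 called genes by p, or the gene with the smallest p. Correlation p-values used 100000 permutations. Positions came from GENCODE M21 and promoters from RefSeq, both GRCm38, the assembly of mm10. Transcripts were aligned with Biopython 1.88 with free end gaps. Alternatives were other pseudocounts, filters, scalings and variance models, the replicate number as a block, and each library left out.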

Additional observations from a re-analysis of the deposited data

Results flagged for a closer look

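In each genotype, the members and the other genes named by rule were searched for a library far from the other 4, over 74 groups of 5 libraries. Such a library was found in 4 groups, where chance alone gives about 1 in 20, or 3.7. No member was among them. KO 2 held 362.7 FPKM of Ctsl, while the remaining KO libraries held 377 to 381. Txndc11 was at 9.92 FPKM in WT 5 against 11.8 to 12.4. KO 5 held 14.2 FPKM of H2-Ab1, while the rest held 17.8 to 19.2. Dpys was at 105 FPKM in KO 1 against 87.5 to 91.7. Txndc11, H2-Ab1 and Dpys were named because their levels followed Saa2, Saa3 and Lrg1, so a library they share with those genes adds nothing.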

How the results depend on the processing

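Saa4 and Lrg1 stayed called lower under the 10 other settings and without any 1 library, with log2 differences from -1.17 to -1.04 and from -0.82 to -0.74 and adjusted p up to 0.006. Saa3 stayed called under the 9 settings that tested it (it falls below a filter at 5 FPKM). Without 1 library it ranged from -1.30 to -0.90, and the call was lost without WT 1. Saa1 ranged from -0.67 to -0.45 and Saa2 from -0.77 to -0.54 without 1 library, with limma adjusted p up to 0.131 and 0.141. With the replicate number as a block Saa1 was at -0.58 and was called (adjusted p = 0.0151). The block changed no other member's call, and 230 genes were higher and 321 lower. The SE of Saa1 went from 0.17 to 0.08 with the block. Over all genes tested, deviations of same-numbered libraries correlated at -0.207 to 0.208, with 2 of 5 pairs over 0.1. For 2 of 5 WT libraries the closest KO library had the same number. So few pairs cannot decide whether a shared number marks a pairing, and the labels do not say. With no filter on low values 294 genes were higher and 370 lower, against 488 and 558. The scalings turned that balance, with 565 higher and 515 lower (median-of-ratios), 554 and 511 (upper-quartile) and 612 and 479 (quantile). Without 1 library the counts ranged from 258 to 454 and from 316 to 541. Pooled r between members includes the genotype difference. Its sign reversed within genotype for Saa1 and Saa4 (-0.083), Saa2 and Saa4 (-0.39) and Saa2 and Lrg1 (-0.18). None of these within-genotype values passed (permutation adjusted p = 0.822). No member changed direction in any setting. Of 35 other called genes named in the text, 21 kept the call without any 1 library, 27 kept it under 3 scalings, and 0 changed sign. Quantile normalization moved the medians of the SAA and LRG1 partner lists from just below to just above 0 (0.006 and 0.008). The SAA list also crossed 0 without WT 1, WT 2 or KO 5 (up to 0.0165), the LRG1 list without KO 1 (0.0177) and the cytokine list without WT 4 (-0.0083). Saa3, at a few FPKM, has the least depth behind it.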
